A study of Arabidopsis thaliana with 18 samples.

Results

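A set of 10 genes of lipid oxidation and jasmonate synthesis was followed in Arabidopsis thaliana seeds. They are the lipoxygenases LOX1 (AT1G55020), LOX2 (AT3G45140), LOX3 (AT1G17420), LOX4 (AT1G72520) and LOX5 (AT3G22400), the allene oxide synthase AOS (AT5G42650), the allene oxide cyclases AOC1 (AT3G25760) and AOC2 (AT3G25770), the reductase OPR3 (AT2G06050) and the jasmonate-conjugating enzyme JAR1 (AT2G46370). They were chosen by locus as the named genes of the route, and all 10 were found among the 33602 transcript models of each library. Polyadenylated RNA was sequenced as stranded paired-end libraries from dry, untreated seeds and from seeds, labelled dormant, that lay for 24 h on wet filter paper in darkness at 25 °C. The 3 genotypes were wild type, an mpk8 mutant and a tcp14 mutant, all from plants grown on soil at 21 °C, which gave 6 groups of 3 libraries. The kinase MPK8 and the transcription factor TCP14 are the genes after which the lines are named, and the design calls them knock outs without giving an allele. The replicates are called biological without a statement that they came from separate plants or seed lots, so p-values measure the spread between these libraries only, which may be technical.

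Lipoxygenases add oxygen to polyunsaturated fatty acids. LOX2, LOX3 and LOX4 oxygenate linolenic acid at the carbon that leads to jasmonate, whereas LOX1 and LOX5 oxygenate at another carbon and feed a separate set of oxylipins. In the plastid, AOS turns the hydroperoxide into an unstable allene oxide and the AOC enzymes close its ring to give OPDA (oxo-phytodienoic acid). OPR3 reduces OPDA in the peroxisome, beta-oxidation shortens the side chain, and JAR1 joins the resulting jasmonic acid to isoleucine, which makes the form perceived by the receptor COI1. Jasmonates are best known from wounding, defence and stamen development, and OPDA has been linked to the inhibition of germination.

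Libraries held 12170793 to 21233207 counted read pairs. TMM factors, which rescale each library so that most genes keep their level, were 0.707 to 0.777 in dry and 1.16 to 1.60 in imbibed libraries, so the direction of a small change on imbibition rests on this scaling. Levels are given as CPM, counts of read pairs scaled to a common TMM library size, and changes as log2 fold changes from the quasi-likelihood test of edgeR with its SE and with p adjusted over the 18061 genes tested. Scaling by library totals alone moved the median log2 change of all genes on imbibition up by 1.09 in wild type, 0.821 in mpk8 and 0.728 in libraries labelled tcp14. MPK8 stood at 11.4 CPM in dry wild type and 4.04 CPM in dry mpk8, and at 11.7 and 4.31 CPM after imbibition. TCP14 goes against its label: it stood at 44.1 CPM in dry and 34.5 CPM in imbibed seeds of the tcp14 line, above the 6.86 and 15.7 CPM of wild type. This line is therefore called tcp14-labelled throughout.

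Markers of seed tissues differed between the groups together with the genes described here. All 8 markers of embryo reserves (cruciferins, albumins, oleosins and ABI3) were detected in every group, and their summed level ranged from 131824 to 157316 CPM among dry libraries. After imbibition the sum ranged from 37319.8 to 45541.6 CPM in wild type, from 93761.4 to 95607.7 CPM in mpk8 and from 94536.6 to 137057 CPM in tcp14-labelled libraries. The 4 endosperm markers summed to between 22829.4 and 34606.6 CPM in dry seeds. Imbibed libraries had endosperm sums between 2611.54 and 3437.77 CPM (wild type), between 6283.27 and 7437.66 CPM (mpk8) and between 4689.16 and 6682.44 CPM (tcp14-labelled). These sums do not describe each marker: only 2 of the 4 were tested, and on imbibition 1 rose and 1 fell in each genotype. Of the 4 endosperm markers ZOU had no pair in any wild-type or tcp14-labelled library, and ALE1 had none in imbibed wild type or imbibed mpk8. The 3 green leaf markers summed to between 11.7 and 16.6 CPM in dry seeds. Their imbibed sums lay between 231.2 and 266.7 CPM (wild type), between 67.8 and 75.9 CPM (mpk8) and between 124.3 and 157.5 CPM (tcp14-labelled), with CA1 at 0 in dry mpk8 and LHCB1.1 at 0 in imbibed mpk8. The 3 seed coat markers summed to 5.41 to 12.2 CPM over all groups, with BAN or TT10 at 0 in several. The part of these tissue differences in the results below was not tested. In such whole-seed samples, fewer cells of a type and less RNA per cell cannot be told apart.

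Levels differed widely among the 10 genes. In dry wild-type seeds LOX1 held 29.3 ± 1.27 CPM per kilobase of transcript model (mean ± SD, n = 3), JAR1 5.86 ± 0.424, AOS 3.50 ± 0.289 and OPR3 2.66 ± 0.168, with no overlap of libraries between neighbours in this order. LOX3 followed at 0.367 ± 0.115 CPM per kilobase, while AOC2 at 0.126 and LOX4 at 0.120 could not be ordered, since their libraries overlapped. AOC1 had 1 read pair in 3 libraries, and LOX2 and LOX5 had none. In imbibed wild type the order was JAR1 (17.4 ± 1.13), LOX1 (6.17 ± 0.273), OPR3 (4.05 ± 0.334) and AOS (1.60 ± 0.164), again without overlap between neighbours. LOX5, LOX3 and AOC1 came next at 0.209, 0.160 and 0.155 CPM per kilobase with overlapping libraries. JAR1 also led LOX1 in imbibed mpk8 (16.0 and 8.26 CPM per kilobase) and imbibed tcp14-labelled seeds (15.2 and 7.61). AOS stood above OPR3 without overlap in dry mpk8 (3.78 and 2.62), and OPR3 stood above AOS without overlap in dry tcp14-labelled seeds (4.38 and 3.25). In imbibed mpk8 their libraries overlapped, at 2.90 CPM per kilobase for AOS and 2.30 for OPR3.

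**Figure D1:**
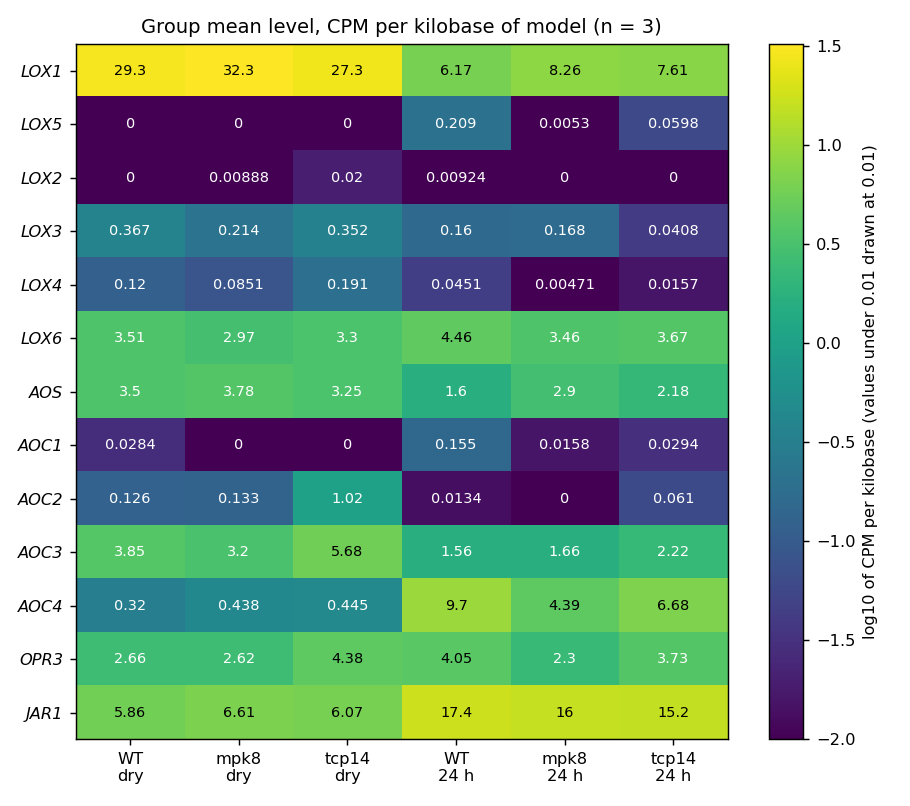
Mean CPM per kilobase of transcript model (n = 3 libraries) for the lipoxygenases, AOS, the cyclases, OPR3 and JAR1 (rows) in the 6 groups (columns), with LOX6, AOC3 and AOC4 shown for completeness of the families. Colour is the log10 of the level, values under 0.01 are drawn at 0.01, and the printed values show LOX1 at 27.3 to 32.3 in dry seeds and AOC4, not AOC1 or AOC2, as the most abundant cyclase in imbibed seeds.

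Of the 10 genes 6, LOX1, LOX3, LOX5, AOS, OPR3 and JAR1, passed the filter on low counts. LOX2, LOX4, AOC1 and AOC2 did not and are described by their read pairs. LOX5 passed only through imbibed wild type, and failed the filter when that group was left out, so its calls against that group are counted below but support nothing. On imbibition 3 of these 6 rose and 3 fell in wild type, where 86.1% of all tested genes were called, 46% higher and 40.1% lower. In mpk8 1 rose and 2 fell (83.1% called, 44.4% higher and 38.7% lower), and in tcp14-labelled seeds 2 rose and 3 fell (83.1% called, 43.8% higher and 39.3% lower). A call on imbibition was thus the usual case over the whole seed transcriptome. Of all calls, 53.4% were increases in wild type, 53.4% in mpk8 and 52.7% in tcp14-labelled seeds, against 79.6%, 77.5% and 75.6% with library totals. In dry seeds none of the 5 genes with a value was called by edgeR or DESeq2 between mpk8 and wild type, where 2.62% of all genes were called, 1.53% higher and 1.09% lower. Of all calls 58.6% were higher, or 19.9% with library totals, and LOX1 alone of these genes had an unadjusted p under 0.05 in the edgeR test. Between the dry tcp14-labelled line and wild type 1, OPR3, was called, with 6.12% of all genes higher and 5.27% lower (11.4% called). In imbibed seeds 2 were higher and 2 lower in mpk8 than in wild type (64.6% called, 33.8% higher and 30.8% lower, that is 52.3% of the calls higher, or 19.8% with library totals). In imbibed tcp14-labelled seeds 2 were higher and 3 lower than in wild type (55.2% called, 27.3% higher and 28% lower, that is 49.4% of the calls higher, or 12.6% with library totals). Between the lines, 1 was higher and 1 lower in mpk8 than in tcp14-labelled dry seeds (25% called, 12.7% higher and 12.3% lower, that is 50.7% of the calls higher, or 26% with library totals), and 1 was higher and 2 lower in imbibed seeds (21% called, 9.45% higher and 11.6% lower). All comparisons with wild type share the same wild-type libraries, so the differences of both lines from it are not independent of each other.

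LOX1, which codes for a lipoxygenase outside the jasmonate branch, was the most abundant of the 5 lipoxygenases in every library and fell in all 3 genotypes. Its level in dry seeds was 82.8, 78.2 and 85.2 CPM in the wild-type libraries, 94.2, 86.2 and 91.0 CPM in mpk8 and 77.8, 78.3 and 73.6 CPM in the tcp14-labelled libraries. After imbibition it was 16.4, 17.7 and 17.8 CPM in wild type, 23.0, 24.0 and 22.4 CPM in mpk8 and 20.8, 20.2 and 22.9 CPM in tcp14-labelled seeds. Every dry library was above every imbibed one, and all imbibed wild-type libraries were below those of the other lines. The decrease was 4.75-fold in wild type (log2 -2.25, SE 0.0621, adjusted p = 6.07e-20), 3.91-fold in mpk8 (-1.97, SE 0.0598) and 3.59-fold in tcp14-labelled seeds (-1.85, SE 0.0611), and with library totals it was -1.16, -1.14 and -1.12. LOX1 made up 93.2% to 99.3% of the summed level per kilobase of LOX1 to LOX5 in single libraries, with the lowest share, 93.2% to 93.8%, in imbibed wild type.

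Between genotypes LOX1 did not differ by the test in dry seeds from wild type, although its libraries did not overlap in mpk8 (log2 0.14, SE 0.0571, adjusted p = 0.200). It was higher in dry mpk8 than in dry tcp14-labelled seeds (log2 0.24, SE 0.0568, adjusted p = 0.00295), a difference that library totals brought to 0.14 (adjusted p = 0.0601). In imbibed seeds LOX1 of mpk8 exceeded that of wild type by 0.42 on the log2 scale (SE 0.0632, adjusted p = 3.88e-06), and LOX1 of tcp14-labelled seeds did so by 0.30 (SE 0.0644, adjusted p = 0.000399). All 8 embryo reserve markers were also called higher in both imbibed lines than in imbibed wild type. Of the 2 endosperm markers tested, 1 was higher and 1 lower in each line. With library totals both differences were lost, at 0.09 (adjusted p = 0.219) and -0.03 (adjusted p = 0.653), while the median of all genes shifted by -0.32 and -0.33. The last bases of LOX1 overlap AT1G55030 on the opposite strand by 52 bases in the TAIR10.1 annotation, and the file headers describe counting per transcript model without saying how such reads were divided.

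**Figure D2:**
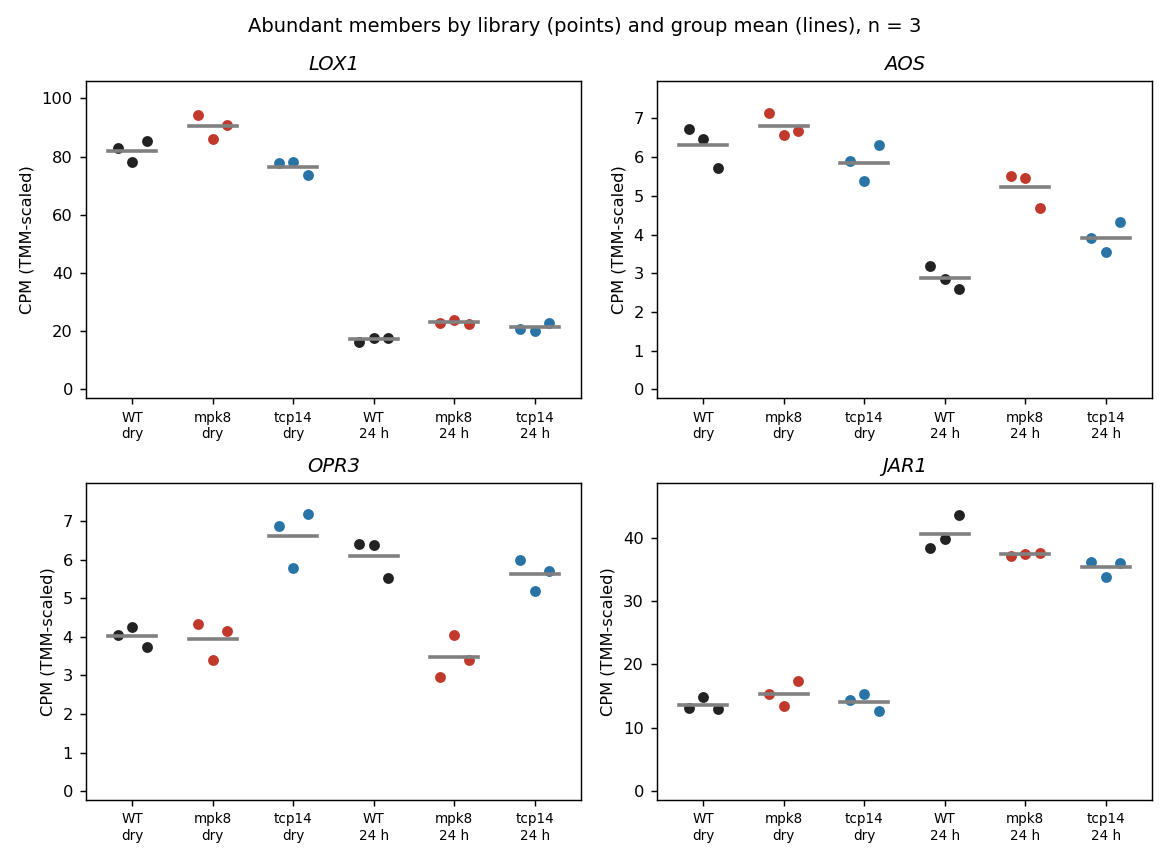
CPM of LOX1, AOS, OPR3 and JAR1 in each library (points, with horizontal offsets for replicates only) and group means (lines, n = 3) for the 6 groups, each panel with its own linear axis from 0. LOX1 lies at 73.6 to 94.2 in dry and 16.4 to 24.0 in imbibed libraries, JAR1 shows the opposite order, and OPR3 is lower in imbibed mpk8 than in imbibed wild type.

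LOX5, the other lipoxygenase outside the jasmonate branch, had most read pairs in imbibed wild type. It had 0 read pairs in all 9 dry libraries, although 5 of them held 1 read counted without its mate. After imbibition it had 16, 15 and 12 pairs in wild type, 0, 0 and 1 in mpk8 and 3, 5 and 3 in tcp14-labelled libraries, so that the 3 imbibed groups did not overlap. Set against a floor of 3 pairs over the dry group, LOX5 after imbibition stood 6.59-fold above that floor in wild type and 2.33-fold in tcp14-labelled seeds. The lower 95% exact limits for counting error were smaller, 4.97-fold from 43 against 0 pairs and 1.59-fold from 11 against 0. For imbibition the edgeR test gave an adjusted p of 0.00714 in tcp14-labelled seeds and 0.399 in mpk8. No p is given for differences from imbibed wild type in the filtered fit, since LOX5 was tested only because that group is high. In the fit of all 25486 genes with a count, without the filter, the adjusted p was 1.8e-05 for imbibition in wild type. Imbibed wild type exceeded imbibed mpk8 by 42.7-fold from 43 against 1 pair (95% exact interval for counting error 7.27 to 1725, and adjusted p = 4.88e-07 in the unfiltered fit). It exceeded imbibed tcp14-labelled seeds by 3.40-fold from 43 against 11 pairs (interval 1.72 to 7.30, and adjusted p = 0.013 in the unfiltered fit). By the DESeq2 Wald test the difference of wild type from tcp14-labelled seeds was not called. The difference between the lines, 1 pair in mpk8 against 11, was called (adjusted p = 0.0295), but not without replicate 1 or 2 of imbibed mpk8 or replicate 2 of imbibed tcp14-labelled seeds, where the adjusted p reached 0.119. The DESeq2 Wald test did not call this difference either. The single pair of imbibed mpk8 is in replicate 3, and without that library the group is at 0. Summed green leaf markers were ordered in the same way between these groups, but only 1 of the 3 was tested, and LHCB1.1 was at 0 in imbibed mpk8. Embryo reserve and endosperm sums were instead lowest in imbibed wild type. The difference in imbibition response could not be estimated for LOX5, since its dry groups are all at 0.

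The jasmonate-branch lipoxygenases LOX2, LOX3 and LOX4 were close to the limit of detection. LOX6, a lipoxygenase listed with the other genes of jasmonate synthesis and not among the 10 genes, passed the filter. Its log2 change on imbibition in wild type by edgeR was 0.375 with DESeq2 size factors (adjusted p = 0.00119) and 1.44 with library totals (adjusted p = 3.29e-12). LOX3 had 8, 17 and 10 read pairs in dry wild type, 12, 3 and 9 in dry mpk8 and 19, 5 and 19 in dry tcp14-labelled libraries. After imbibition it had 7, 9 and 18 pairs in wild type, 10, 6 and 18 in mpk8 and 5, 3 and 0 in tcp14-labelled libraries. The dry groups overlapped, and the tcp14-labelled libraries were the lowest of the imbibed ones. In CPM the fall on imbibition was log2 -3.00 (SE 0.646, adjusted p = 0.000182) in tcp14-labelled seeds. Leaving out single libraries moved this value from -3.70, without replicate 1 of imbibed tcp14-labelled seeds, to -2.51, and library totals gave -2.28. In wild type the fall was -1.19 (SE 0.514, adjusted p = 0.0348), and LOX3 had -0.37 (SE 0.555, adjusted p = 0.533) in mpk8. The call in wild type was lost without replicate 1 or 2 of the imbibed or replicate 2 or 3 of the dry wild-type libraries (adjusted p up to 0.180) and with library totals (log2 -0.12, adjusted p = 0.836). In imbibed seeds LOX3 was lower in tcp14-labelled libraries than in wild type (log2 -1.83, SE 0.692, adjusted p = 0.0286, or -2.53 without replicate 1 of imbibed tcp14-labelled seeds), a call lost without replicate 3 of imbibed wild type or replicate 2 or 3 of imbibed tcp14-labelled seeds (adjusted p up to 0.143).

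LOX4, the closest copy of LOX3 with 79.5% identity of their coding sequences, had 6, 0 and 5 pairs in dry wild type, 3, 5 and 2 in dry mpk8 and 8, 5 and 10 in dry tcp14-labelled libraries. After imbibition it had 4, 2 and 4 pairs in wild type, 0, 1 and 0 in mpk8 and 2, 0 and 1 in tcp14-labelled libraries. In both lines every dry library had more pairs than any imbibed one, whereas the wild-type groups overlapped. Pooled over libraries, the wild-type ratio of imbibed to dry CPM was 0.405 (95% exact interval for counting error 0.154 to 1.05). For mpk8 the ratio was 0.0540 (0.00124 to 0.380), and for tcp14-labelled seeds 0.0827 (0.0159 to 0.274). When all 25486 genes with a count were fitted, LOX4 was called lower on imbibition in mpk8 (adjusted p = 0.00276) and tcp14-labelled seeds (adjusted p = 9.78e-05), and lower in imbibed mpk8 than in imbibed wild type (adjusted p = 0.0363). LOX2, the lipoxygenase known for wound-induced jasmonate in leaves, had at most 2 pairs in any library.

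**Figure D3:**
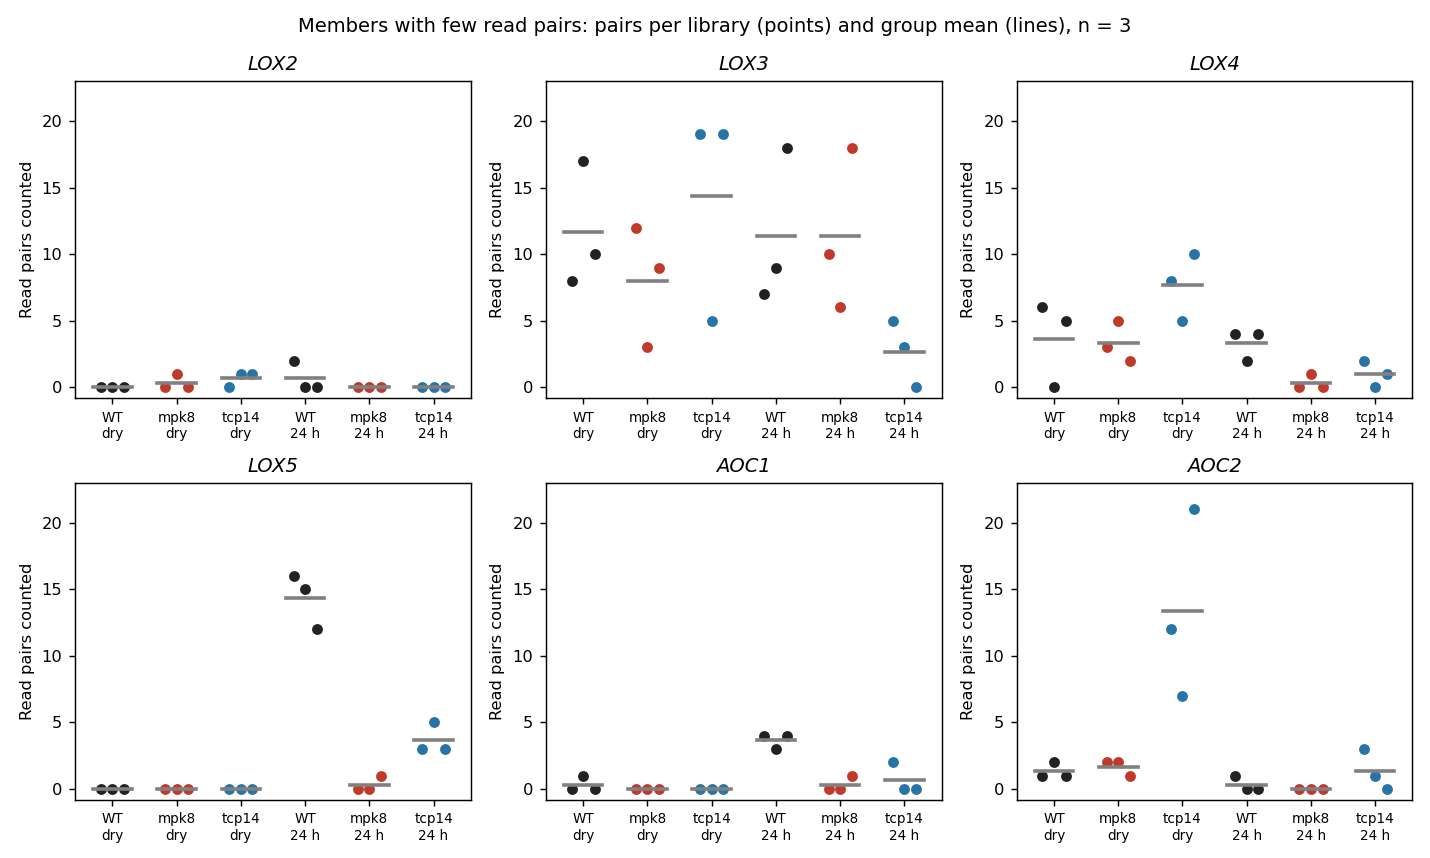
Counted read pairs in each library (points) and group means (lines, n = 3) for LOX2, LOX3, LOX4, LOX5, AOC1 and AOC2, all on the same linear axis, not scaled for depth. LOX5 appears in imbibed wild type at 12 to 16 pairs, and AOC2 in dry tcp14-labelled seeds at 7 to 21 pairs.

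AOS codes for the first enzyme that is specific to the allene oxide branch. In dry seeds it stood at 6.73, 6.46 and 5.72 CPM in wild type, 7.15, 6.58 and 6.67 CPM in mpk8 and 5.89, 5.39 and 6.30 CPM in tcp14-labelled libraries. After imbibition it stood at 3.19, 2.85 and 2.60 CPM in wild type, 5.52, 5.46 and 4.69 CPM in mpk8 and 3.91, 3.54 and 4.31 CPM in tcp14-labelled libraries. The imbibed groups did not overlap, with wild type lowest and mpk8 highest, and within each genotype the dry libraries were above the imbibed ones. The fall was 2.19-fold in wild type (log2 -1.13, SE 0.136, adjusted p = 5.21e-08), 1.30-fold in mpk8 (-0.38, SE 0.121, adjusted p = 0.0068) and 1.50-fold in tcp14-labelled seeds (-0.59, SE 0.130, adjusted p = 0.000244). These decreases depended on the scaling. With library totals the log2 change of AOS was -0.05 (adjusted p = 0.756) in wild type, 0.44 (adjusted p = 0.00246) in mpk8 and 0.14 (adjusted p = 0.334) in tcp14-labelled seeds.

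The genotype difference of AOS in imbibed seeds was 1.82-fold for mpk8 above wild type (log2 0.86, SE 0.125, adjusted p = 2.48e-06), and 0.53 on the log2 scale with library totals (adjusted p = 0.00127). For tcp14-labelled seeds it was log2 0.44 (SE 0.132, adjusted p = 0.00664), and 0.11 with library totals (adjusted p = 0.505). AOS was also higher in imbibed mpk8 than in imbibed tcp14-labelled seeds (log2 0.42, SE 0.122, adjusted p = 0.0162), but the adjusted p reached 0.0825 without replicate 1 or 2 of imbibed mpk8 or replicate 2 of imbibed tcp14-labelled seeds. This call was also lost with the DESeq2 Wald test and in the fit of only the groups compared. In dry seeds the AOS differences to wild type, 0.11 (SE 0.131) for mpk8 and -0.10 (SE 0.133) for the tcp14-labelled line, were not called (adjusted p = 0.762 and 0.727).

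The bases before the annotated starts are shown for LOX1, AOS and OPR3, because a motif known from seed and stress promoters sits at the AOS start. In these 3 genes the imbibition response differed between genotypes by the edgeR test with TMM scaling. Each window holds the 300 bases before the gene in RefSeq's TAIR10.1 assembly, read 5′ to 3′ on the gene's strand, at chr1:20525354-20525653 (plus strand) for LOX1, chr5:17099596-17099895 (minus strand) for AOS and chr2:2362376-2362675 (minus strand) for OPR3. Capitals mark the G-box CACGTG.
LOX1 upstream: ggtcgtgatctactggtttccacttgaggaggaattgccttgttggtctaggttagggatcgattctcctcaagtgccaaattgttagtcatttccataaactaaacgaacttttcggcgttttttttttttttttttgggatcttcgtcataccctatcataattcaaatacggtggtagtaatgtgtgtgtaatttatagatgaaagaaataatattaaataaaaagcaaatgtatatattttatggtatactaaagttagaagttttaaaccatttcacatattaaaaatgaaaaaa
AOS upstream: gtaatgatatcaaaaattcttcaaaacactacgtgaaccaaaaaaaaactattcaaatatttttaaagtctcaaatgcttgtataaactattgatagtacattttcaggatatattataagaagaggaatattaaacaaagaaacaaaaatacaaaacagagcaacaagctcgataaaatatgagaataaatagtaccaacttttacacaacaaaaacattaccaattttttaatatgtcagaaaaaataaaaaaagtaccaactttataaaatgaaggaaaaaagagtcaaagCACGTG
OPR3 upstream: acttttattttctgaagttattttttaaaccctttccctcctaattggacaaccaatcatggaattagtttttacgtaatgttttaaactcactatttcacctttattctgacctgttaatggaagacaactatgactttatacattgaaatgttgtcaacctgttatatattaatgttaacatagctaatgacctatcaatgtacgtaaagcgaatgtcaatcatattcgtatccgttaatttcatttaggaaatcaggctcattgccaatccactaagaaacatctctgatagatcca
Both strands of the windows of all 10 genes were searched for the G-box CACGTG, the ABA-response element ACGTGNC, which can overlap it, the RY element CATGCA, the class I TCP site GTGGGNCC and the shorter TGGGCC, which can overlap the latter. Among all 27443 windows of this length these letters occur in 7.09%, 9.46%, 10.3%, 1.18% and 14.6%. Only AOS has the G-box, ending at the last base before the gene, LOX3 has an ABA-response element and LOX2 an RY element, and the other windows hold none of the 5. A match or its absence describes these letters in this window and not the binding of a factor.

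AOC1 and AOC2 stand in tandem on chromosome 3, at chr3:9403779-9405338 and chr3:9406669-9408071 (plus strand, TAIR10.1). Their coding sequences, of 765 and 762 bases, are 89.9% identical. A stretch of 150 coding bases, from base 535 in AOC1 and base 532 in AOC2, is shown because it contains their longest shared run, of 47 bases, and only 10 differing bases, which are in capitals.
AOC1 stretch: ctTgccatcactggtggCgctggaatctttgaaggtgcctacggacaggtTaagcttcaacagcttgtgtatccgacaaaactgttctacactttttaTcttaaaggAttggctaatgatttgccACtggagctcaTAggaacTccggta
AOC2 stretch: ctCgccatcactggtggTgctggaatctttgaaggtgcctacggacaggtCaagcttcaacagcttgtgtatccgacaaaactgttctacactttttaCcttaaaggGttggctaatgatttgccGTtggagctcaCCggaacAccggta
Pairs that matched both copies equally well were removed before counting, per the file headers, so counts of both genes may be too low and are uncertain. Within these limits the copies behaved differently. AOC1 had 0, 1 and 0 pairs in dry wild type and none in the other dry libraries, then 4, 3 and 4 pairs in imbibed wild type, 0, 0 and 1 in imbibed mpk8 and 2, 0 and 0 in imbibed tcp14-labelled libraries. AOC2 had 1, 2 and 1 pairs in dry wild type, 2, 2 and 1 in dry mpk8 and 12, 7 and 21 in dry tcp14-labelled libraries, and after imbibition 1, 0 and 0, none, and 3, 1 and 0. The imbibed wild-type libraries were the highest for AOC1 and the dry tcp14-labelled libraries the highest for AOC2, neither overlapping any other group.

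Neither gene, nor the sum of both, passed the filter on low counts. From pooled pairs, AOC2 was 8.08-fold higher in dry tcp14-labelled seeds than in dry wild type (40 against 4 pairs, 95% exact interval for counting error 2.92 to 31.1). In the fit of all 25486 genes with a count its log2 difference was 2.95 (SE 0.757, adjusted p = 0.00278), and that of AOC1 and AOC2 summed was 2.64 (SE 0.695, adjusted p = 0.00371). In the same fits AOC1 was lower in imbibed mpk8 than in imbibed wild type (1 against 11 pairs, adjusted p = 0.0331), as was the sum (log2 -3.03, adjusted p = 0.0145). AOC2 also fell on imbibition in tcp14-labelled seeds (4 against 40 pairs, adjusted p = 4.19e-07) and in mpk8 (0 against 5 pairs, adjusted p = 0.0115). In wild type its imbibition change was not called (1 against 4 pairs, adjusted p = 0.085). AOC2 was lower in dry mpk8 than in dry tcp14-labelled seeds (5 against 40 pairs, adjusted p = 0.000831). AOC1 and AOC2 lie among genes that differ often between the dry tcp14-labelled and wild-type libraries. Of the 100 tested genes nearest to them, 9% were called with at least a 2-fold difference, against 2.1% (377 of 17959) of all tested genes with a known position. The share was 24% around LOX2, 0% around AOS, OPR3, JAR1 and LOX4, 1% around LOX1, and 2% around LOX3 and LOX5.

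OPR3, the peroxisomal OPDA reductase of jasmonate synthesis, was the only one of the 6 tested genes that was called between a line and wild type in dry seeds. In dry seeds it stood at 4.04, 4.25 and 3.75 CPM in wild type, 4.32, 3.40 and 4.15 CPM in mpk8 and 6.86, 5.78 and 7.19 CPM in tcp14-labelled libraries. After imbibition it stood at 6.41, 6.39 and 5.53 CPM in wild type, 2.95, 4.04 and 3.41 CPM in mpk8 and 5.98, 5.20 and 5.70 CPM in tcp14-labelled libraries. Dry tcp14-labelled libraries lay above the other dry libraries, and imbibed mpk8 libraries lay below the other imbibed ones. OPR3 was 1.65-fold higher in dry tcp14-labelled seeds than in wild type (log2 0.72, SE 0.154, adjusted p = 0.00246), with adjusted p from 0.00196 to 0.0159 when single libraries were left out and a difference of 0.75 with library totals. It was lower in mpk8 than in tcp14-labelled seeds both dry (log2 -0.75, SE 0.149, adjusted p = 0.000653) and imbibed (-0.70, SE 0.134, adjusted p = 0.000518).

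On imbibition OPR3 rose 1.51-fold in wild type (log2 0.60, SE 0.147, adjusted p = 0.000664). It was not called in mpk8 (-0.19, SE 0.151, adjusted p = 0.237) or tcp14-labelled seeds (-0.24, SE 0.133, adjusted p = 0.096), but with library totals both turned into increases of 0.63 and 0.49 (adjusted p = 0.000838 and 0.0028). Without replicate 2 of dry tcp14-labelled seeds OPR3 was called lower on imbibition in that line (adjusted p = 0.046). In imbibed seeds OPR3 was 1.76-fold lower in mpk8 than in wild type (log2 -0.82, SE 0.131, adjusted p = 9.4e-06), and by -1.15 with library totals. For imbibed tcp14-labelled seeds the OPR3 difference to wild type was -0.11 (SE 0.125, adjusted p = 0.458), and with library totals -0.45 (adjusted p = 0.00594). In dry mpk8 it was -0.03 (SE 0.166, adjusted p = 0.980).

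JAR1, which makes the bioactive isoleucine conjugate of jasmonic acid, rose in all 3 genotypes. In dry seeds it stood at 13.2, 14.8 and 13.0 CPM in wild type, 15.4, 13.4 and 17.4 CPM in mpk8 and 14.4, 15.3 and 12.7 CPM in tcp14-labelled libraries, and these groups overlapped. After imbibition it stood at 38.4, 39.8 and 43.5 CPM in wild type, 37.1, 37.4 and 37.5 CPM in mpk8 and 36.1, 33.7 and 36.1 CPM in tcp14-labelled libraries, all above every dry library. The increase was 2.96-fold in wild type (log2 1.57, SE 0.0852, adjusted p = 2.66e-14), 2.43-fold in mpk8 (1.28, SE 0.0816) and 2.50-fold in tcp14-labelled seeds (1.32, SE 0.0832), and with library totals it was 2.65, 2.10 and 2.05 on the log2 scale. JAR1 was lower in imbibed tcp14-labelled seeds than in wild type (log2 -0.20, SE 0.0713, adjusted p = 0.0196), a call lost without replicate 3 of imbibed wild type or replicate 2 of imbibed tcp14-labelled seeds (adjusted p up to 0.130). For imbibed mpk8 the difference of -0.12 (SE 0.0705) was not called (adjusted p = 0.143), although the libraries did not overlap, and it was -0.45 (adjusted p = 2.6e-05) with library totals. This JAR1 difference was also called with DESeq2 size factors and in the fit of only the groups compared.

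The remaining differences between genotypes were not called. For LOX3 in dry seeds they were -0.80 (SE 0.547) between mpk8 and wild type, -0.02 (SE 0.492) between the tcp14-labelled line and wild type and -0.78 (SE 0.528) between the lines on the log2 scale. In imbibed seeds LOX3 was at 0.02 (SE 0.515) between mpk8 and wild type and at 1.85 (SE 0.692, adjusted p = 0.0599) between the lines, where it was called without replicate 2 of imbibed mpk8 (adjusted p = 0.0395). JAR1 in dry seeds was at 0.17 (SE 0.0969), 0.04 (SE 0.0979) and 0.13 (SE 0.0937) in the same order, and at 0.08 (SE 0.0716) between the imbibed lines. LOX1 was at -0.10 (SE 0.0576) between the dry tcp14-labelled line and wild type and at 0.12 (SE 0.0627) between the imbibed lines, and AOS at 0.21 (SE 0.128) between the dry lines.

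**Figure D4:**
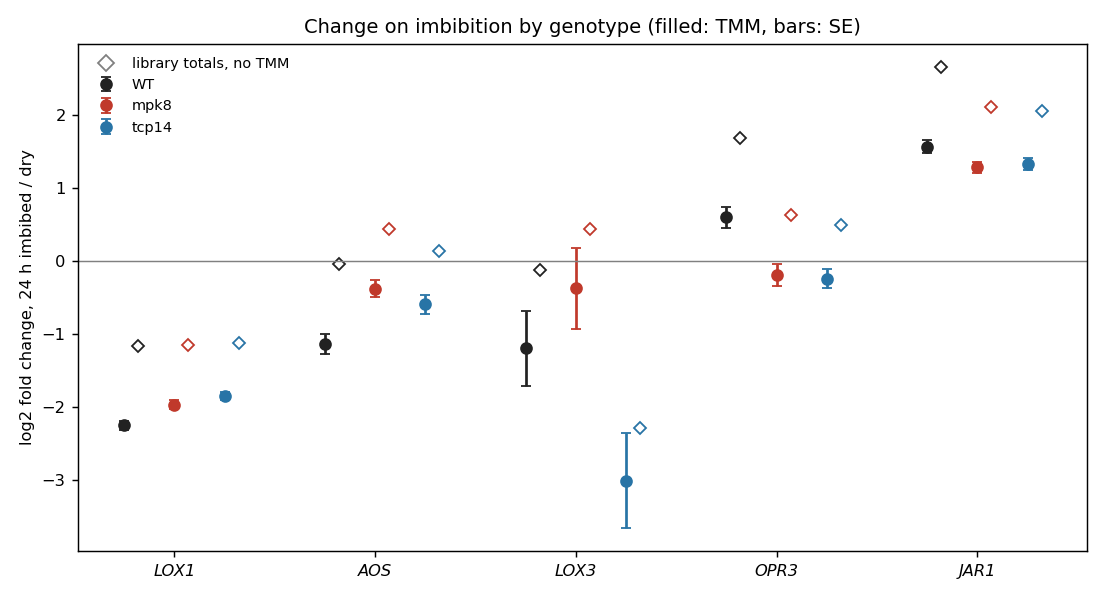
Log2 fold change of 24 h imbibed over dry seeds (y axis) for LOX1, AOS, LOX3, OPR3 and JAR1 in wild type, mpk8 and tcp14-labelled seeds, as filled points with SE bars from the edgeR fit with TMM scaling (3 libraries per group) and as open diamonds with library totals. LOX1 is below and JAR1 above 0 in all 3 genotypes under both scalings, while AOS and OPR3 cross 0 in both lines.

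By the edgeR test with TMM scaling, the size of the imbibition response differed between genotypes for LOX1, AOS and OPR3. This difference was tested as the interaction of genotype and imbibition, in which 2 of 5 genes were higher and 1 lower for mpk8 (39% of all genes called, 24% higher and 15% lower, that is 61.5% of the calls higher, or 26.4% with library totals) and likewise for the tcp14-labelled line (33.2% called, 19.2% higher and 13.9% lower, that is 58% of the calls higher, or 12% with library totals). The fall of LOX1 was smaller by log2 0.28 (SE 0.0852, adjusted p = 0.0114) in mpk8 and by 0.40 (SE 0.0863, adjusted p = 0.00092) in tcp14-labelled seeds than in wild type, and with library totals these differences were 0.01 (adjusted p = 0.940) and 0.04 (adjusted p = 0.761). The fall of AOS was smaller by 0.76 (SE 0.182, adjusted p = 0.00198) in mpk8, and by 0.55 (SE 0.188, adjusted p = 0.0279) in tcp14-labelled seeds. With library totals AOS gave 0.49 (adjusted p = 0.0478) and 0.18 (adjusted p = 0.471). The tcp14 value of AOS was no longer called without replicate 3 of imbibed or replicate 1 or 2 of dry wild type, replicate 3 of imbibed or replicate 2 of dry tcp14-labelled seeds (adjusted p up to 0.0817). Nor was this AOS value called by the DESeq2 Wald test, without the filter on counts or in the fit of only the groups compared. For OPR3 the response was lower than in wild type by -0.79 (SE 0.212, adjusted p = 0.00476) in mpk8 and by -0.84 (SE 0.198, adjusted p = 0.00216) in tcp14-labelled seeds, and by -1.06 and -1.20 with library totals. LOX3 and JAR1 were not called in either interaction by edgeR with TMM scaling (adjusted p from 0.063 to 0.421). With library totals JAR1 was called lower in both (-0.55 and -0.60, adjusted p = 0.00201 and 0.00094), and it was called for mpk8 without replicate 1 of imbibed wild type, replicate 2 of dry wild type or replicate 2 of dry mpk8 (adjusted p as low as 0.0166). The mpk8 value of JAR1 was also called with DESeq2 size factors, by the DESeq2 Wald test and in the fit of only the groups compared.

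Other genes of jasmonate synthesis moved in both directions on imbibition. Of 16 listed genes 14 were tested, of which 5 rose and 8 fell in wild type (median log2 -0.41, against 0.14 over all genes), 4 rose and 10 fell in mpk8 (median -0.91) and 4 rose and 9 fell in tcp14-labelled seeds (median -0.70). With library totals these counts were 8 and 5, 6 and 6, and 6 and 6. Over all genes, with TMM scaling, 86.1% were called on imbibition in wild type and 83.1% in each line. AOC4, a further allene oxide cyclase, rose in wild type from 0.402 to 12.2 CPM (log2 4.88, SE 0.247). The increase of AOC4 was log2 3.31 (SE 0.244) in mpk8, to 5.52 CPM, and 3.96 (SE 0.232) in the tcp14-labelled line, to 8.41 CPM. ACX1, an acyl-CoA oxidase of the beta-oxidation step that also serves storage oil breakdown, fell from 504.8 to 85.5 CPM in wild type (log2 -2.56, SE 0.0577). ACX1 fell in the other lines too (-2.50 in mpk8 and -2.21 in tcp14-labelled seeds). AIM1, a multifunctional protein of beta-oxidation, fell from 452.9 to 125.4 CPM in wild type (log2 -1.85), by -1.56 in mpk8 and by -1.34 in tcp14-labelled seeds. ACX3, a further acyl-CoA oxidase, also fell in all 3 genotypes (-1.22, -1.83 and -1.79).

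In imbibed seeds 4 of these 14 genes were higher and 9 lower in mpk8 than in wild type, and 5 higher and 7 lower in tcp14-labelled seeds, or 1 and 10, and 0 and 10, with library totals. Over all genes 33.8% were higher and 30.8% lower in mpk8, and 27.3% and 28% in tcp14-labelled seeds. AOC4 was lower in both, by log2 -1.15 (SE 0.132) and -0.53 (SE 0.128), ACX2, also an acyl-CoA oxidase, by -0.73 and -0.55, and ACX3 by -0.50 and -0.36. AIM1 was higher in imbibed mpk8 (log2 0.48, and 0.15 with library totals) and imbibed tcp14-labelled seeds (log2 0.40, and 0.06 with library totals, not called). In dry seeds 1 of the 14, AIM1, was higher in mpk8 (log2 0.19, adjusted p = 0.034, but log2 0.12 and adjusted p = 0.149 with library totals), and 3 were higher and 1 lower in tcp14-labelled seeds. Among the latter were AOC3, next to AOC2 on chromosome 3 (3.88 against 5.72 CPM, log2 0.58, SE 0.181, adjusted p = 0.0391), ACX3 (0.21) and the peroxisomal transporter PXA1/CTS (-0.17, not called with library totals). Between the lines, 6 were higher and 2 lower in dry mpk8 than in dry tcp14-labelled seeds, or 3 and 3 with library totals, among them AOC3 (-0.83), MFP2 (0.30), AIM1 (0.30) and, under 5 CPM, OPCL1 (-1.67), and 1 was higher and 2 lower in imbibed seeds, PXA1/CTS (0.12), AOC4 (-0.61) and ACX2 (-0.18), of which AOC4 was still called with library totals. In the interactions 2 were higher and 6 lower for mpk8, and 3 higher and 5 lower for the tcp14-labelled line, against 0 and 8, and 0 and 7, with library totals.

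The 5 listed genes of related lipid oxidation were all tested. Over all genes 86.1% were called on imbibition in wild type and 83.1% in each line. Against wild type 64.6% were called in imbibed mpk8 and 55.2% in imbibed tcp14-labelled seeds, and 2.62% and 11.4% in dry seeds. The shares between the lines were 25% in dry and 21% in imbibed seeds, and those of the interactions 39% for mpk8 and 33.2% for the tcp14-labelled line. In wild type 1 rose and 4 fell on imbibition, among them OPR1, a reductase related to OPR3 (10.4 to 3.05 CPM, log2 -1.77, SE 0.161), and DOX2, an alpha-dioxygenase (-0.42, turning to 0.66 with library totals). In mpk8 3 fell and none rose, with OPR1 at -3.34 (SE 0.186), and in tcp14-labelled seeds 4 fell and none rose, with OPR1 at -2.25 (SE 0.178) and DOX2 at -0.52 (0.22 with library totals). With library totals they were 2 higher and 3 lower in wild type and 1 higher and 3 lower in each line. In imbibed mpk8 1, DOX2 (0.30), was higher and 2 lower than in wild type, and in imbibed tcp14-labelled seeds 1, DOX2 (0.25), was higher and 3 lower. With library totals both DOX2 values changed sign (-0.03 and -0.09) and neither was called. OPR1 was called lower in imbibed mpk8 and imbibed tcp14-labelled seeds with library totals (-1.89 and -1.09) and with DESeq2 size factors (-1.60 and -0.78). In dry seeds none differed in mpk8, and 2 were higher in tcp14-labelled seeds, among them DOX2 (0.34). Between the lines 2 were lower in dry mpk8, among them DOX2 (-0.38), and 1 in imbibed mpk8. In the interactions 1 was higher and 2 lower for mpk8, and 1 lower for the tcp14-labelled line, against 0 and 2, and 0 and 3, with library totals.

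Of 8 listed genes of jasmonate conjugation and turnover 6 were tested. Over all genes 86.1% were called on imbibition in wild type and 83.1% in each line. On imbibition 1 rose and 4 fell in wild type, 2 rose and 3 fell in mpk8, and 2 rose and 4 fell in tcp14-labelled seeds, against 3 and 2, 3 and 2, and 3 and 3 with library totals. CYP94C1, a cytochrome P450 that oxidises the isoleucine conjugate made by JAR1, rose by log2 5.63 (SE 0.390) in wild type, from 0.171 to 8.12 CPM, by 4.41 (SE 0.551) in mpk8, to 1.81 CPM, and by 4.93 (SE 0.363) in the tcp14-labelled line, to 6.41 CPM. ST2A, a sulfotransferase of hydroxylated jasmonate, fell from 52.8 to 16.0 CPM in wild type (log2 -1.72), by log2 -1.98 in mpk8 and by -1.69 in tcp14-labelled seeds, and ILL6, an amidohydrolase of the conjugate, fell in wild type (-1.60), mpk8 (-1.15) and tcp14-labelled seeds (-1.03). JOX2, which hydroxylates jasmonic acid, rose in mpk8 (0.49) and tcp14-labelled seeds (0.71) and fell in wild type (-0.55, turning to 0.54 with library totals). In imbibed seeds 3 were higher and 1 lower in mpk8 than in wild type, with JOX2 (0.93) and the amidohydrolase IAR3 (0.44, and 0.10 with library totals, not called) higher and CYP94C1 lower (-2.16, SE 0.203). In imbibed tcp14-labelled seeds 4 were higher and none lower, among them JOX2 (1.28), ILL6 (0.68) and IAR3 (0.28, turning to -0.06 with library totals, not called). Calls over all genes made up 64.6% for mpk8 and 55.2% for the tcp14-labelled line. With library totals these counts were 1 higher and 2 lower in mpk8, and 3 higher and 2 lower in the tcp14-labelled line.

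In dry tcp14-labelled seeds 1 of these 6, CYP94B3, was higher, at 6.02 against 0.211 CPM in wild type (log2 4.74, SE 0.454, adjusted p = 6.55e-08). CYP94B3 hydroxylates the isoleucine conjugate. Of the 100 tested genes nearest to it, 16% were called with at least a 2-fold difference in this comparison, the same share as around TCP14. Both genes lie on chromosome 3 (AT3G48520 and AT3G47620), so these windows can share genes and the equal shares are not independent. CYP94B3 fell on imbibition in this line (log2 -3.62, SE 0.336). In dry mpk8 none of the 6 differed from wild type. Between the lines 2 were lower in dry mpk8, CYP94B3 (-6.14) and ILL6 (-0.27), and 5 in imbibed mpk8, among them CYP94C1 (-1.82), ILL6 (-0.40) and JOX2 (-0.36). In the interactions 3 were higher for mpk8 and 2 for the tcp14-labelled line, and none lower, against 1 higher and 1 lower in each with library totals.

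Of 12 listed genes of jasmonate perception and response 7 were tested. The shares called over all genes were 86.1% on imbibition in wild type and 83.1% in each line. They were 64.6% for imbibed mpk8 and 55.2% for imbibed tcp14-labelled seeds against wild type, and 2.62% and 11.4% in dry seeds. Between the lines they were 25% in dry and 21% in imbibed seeds, and in the interactions 39% for mpk8 and 33.2% for the tcp14-labelled line. On imbibition 3 rose and 2 fell in wild type, 4 rose and 1 fell in mpk8, and 5 rose and 2 fell in tcp14-labelled seeds, against 5 and 1, 6 and 1, and 5 and 2 with library totals. MYC4, a transcription factor of jasmonate response, rose from 3.14 to 16.5 CPM in wild type (log2 2.40, SE 0.109), by 2.00 in mpk8 and by 2.61 in tcp14-labelled seeds. Its relative MYC2 rose in wild type (0.58) and tcp14-labelled seeds (0.56), and MYC3 fell in wild type (-0.29, turning to 0.80 with library totals) and rose in mpk8 (0.43) and tcp14-labelled seeds (0.53). NINJA, an adaptor of the repressor complex, rose in wild type (0.17), mpk8 (0.60) and tcp14-labelled seeds (0.64). COI1, the receptor, rose in mpk8 (0.47, SE 0.0856) and tcp14-labelled seeds (0.51, SE 0.0874), and was at 0.13 in wild type (adjusted p = 0.167, but log2 1.22 and called with library totals). In imbibed seeds 3 were higher and 2 lower in mpk8 than in wild type, with MYC3 (0.74) and NINJA (0.47) higher and MYC2 lower (-0.64), and 3 were higher and 1 lower in tcp14-labelled seeds, with NINJA (0.51) and MYC3 (0.50) higher and MYC4 lower (-0.27), where MYC3 was not called with library totals (0.16). MYC4 was also lower in imbibed mpk8 (-0.33). With library totals the counts were 2 higher and 2 lower in mpk8, and 1 higher and 2 lower in the tcp14-labelled line. In dry seeds none differed in mpk8, and 1 was higher and 1 lower in tcp14-labelled seeds, the latter MYC3 (-0.32). Between the lines 2 were higher and 1 lower in dry mpk8, among them MYC3 (0.35), and 1 was higher and 1 lower in imbibed mpk8, among them MYC2 (-0.61). In each interaction 3 were higher and 1 lower, against 1 and 2 for mpk8 and 1 and 1 for the tcp14-labelled line with library totals.

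Profiles over the 18 libraries were compared by the Pearson correlation of log2 CPM, as a description in which all genes share libraries and depth. LOX1 and JAR1 ran opposite to each other (r = -0.976), LOX1 and AOS ran together (r = 0.855), and OPR3 followed neither LOX1 (r = -0.181) nor JAR1 (r = 0.0844). LOX5 and AOS ran opposite to each other (r = -0.941). LOX5 had 0 pairs in all 9 dry libraries and at most 16 pairs in any library, so its correlations rest on few pairs. The CPM used here are TMM-scaled, and the imbibition change of AOS depends on that scaling. The genes most like LOX1 were OEP37, ACR6 and AT5G64430 (r = 0.9988, 0.9986 and 0.9985), but 3583 of 18060 other genes exceeded 0.95. Those most like JAR1 were AT4G30330, TMM and AT5G62350 (r = 0.9936, 0.9925 and 0.9923), with 2157 genes over 0.95. For AOS they were AT5G20610, SNL2 and ML5 (r = 0.9905, 0.9792 and 0.9775), with 116 genes over 0.95. For LOX5 they were AT2G27420, AT1G19830 and AT4G11610 (r = 0.9753, 0.9752 and 0.9751), with 85 genes over 0.95. No gene exceeded 0.95 with OPR3, for which CYP71B20, PLP3a and NAGS2 came closest (r = 0.8808, 0.8771 and 0.8729), or with LOX3, for which AT5G02830, COPT1 and ALIS5 came closest (r = 0.8231, 0.8208 and 0.815).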

How the data were processed

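The deposited counts of read pairs per transcript model were used as raw counts, 1 file for each of 18 libraries. Per the file headers, the authors counted proper pairs by strand, kept singletons apart and removed reads with several equally good hits. Per the submitters' processing notes, TopHat2, Bowtie2 and TAIR10 were used, versions not given. The genes and lists were chosen with earlier results of these data known.

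The low-count filter filterByExpr left 18061 genes, fitted in edgeR 4.0.16 (limma 3.58.1, R 4.3.3), quasi-likelihood F test, TMM scaling and 1 mean per group over all libraries. Calls have a Benjamini-Hochberg adjusted p under 0.05, with no minimum fold, in 11 comparisons. Each SE was obtained from the log2 fold change and the F statistic. The fit was tested on simulated data. Exact intervals and floors cover counting error only. Level per length used the model length in the files, since no table of coding lengths was given. Named genes of the pathway lists are up to 3 per list and comparison with the largest called change, at least 5 CPM and no overlap of groups. For each tested gene of the route, the 3 genes with the highest correlation were named too. LOX6, OPCL1 and the values of named genes in further genotypes and comparisons were added after values were seen. Sequences and positions are from RefSeq TAIR10.1, in which 97.7% of loci were found, and not from the files.

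Alternatives were scaling by library totals or DESeq2 size factors, the DESeq2 1.42.0 Wald test, no filter on counts, a minimum change of 2-fold, single reads in place of pairs, separate fits per comparison, replicate number as a block, and leaving out single libraries. Same-numbered libraries did not all deviate together (27 pairs, r -0.245 to 0.380, 8 of them over 0.1), and in 0 comparisons was every pair over 0.1. Numbers were therefore not taken as pairs.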

Additional observations from a re-analysis of the deposited data

Results flagged for a closer look

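The imbibition response of 3 genes differed between a mutant-labelled line and wild type by the interaction test of edgeR, which is what marks them for a closer look. The values are differences of log2 fold changes, line minus wild type, and both lines are set against the same wild-type libraries. LOX1 had an interaction of 0.28 (SE 0.0852) for mpk8 and 0.40 (SE 0.0863) for tcp14-labelled seeds. AOS had 0.76 (SE 0.182) and 0.55 (SE 0.188). OPR3 had -0.79 (SE 0.212) and -0.84 (SE 0.198). With library totals OPR3 stayed called in both, AOS in mpk8 only, and LOX1 in neither. Seed reserve, endosperm and green leaf markers differed between the same imbibed groups, and their part in these values was not tested. Of the 2 endosperm markers tested, 1 was higher and 1 lower than in wild type in each imbibed line.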

How the results depend on the processing

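Of 1579 recomputed changes of single genes, 1484 kept their direction and side of the threshold, 57 lost and 16 gained the call, and 22 changed sign. The cause of these changes was not tested, nor that of the counts below.

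With library totals the log2 change on imbibition was 0.44 for LOX3, 0.44 for AOS and 0.63 for OPR3 in mpk8, and 0.14 for AOS and 0.49 for OPR3 in tcp14-labelled seeds. The differences to wild type were -0.31 for LOX3 in imbibed mpk8, 0.0015 for LOX3 in dry and -0.034 for LOX1 in imbibed tcp14-labelled seeds, and 1 gene of the route was called between the dry lines. DESeq2 size factors gave -0.019 for LOX3 in imbibed mpk8. Single reads gave -1.26 for LOX5 on imbibition in mpk8, 0.0033 for OPR3 in dry mpk8 and 0.010 for LOX3 in dry tcp14-labelled seeds. Without the filter 5 genes of the route were called on imbibition in mpk8 and 2 in dry tcp14-labelled seeds, and 838 of all genes in dry mpk8. Fits of only the groups compared called 3 genes of the route on imbibition in tcp14-labelled seeds and 1 between the imbibed lines, with 1045 of all genes in dry mpk8 and 2351 between the imbibed lines, and gave -0.019 for LOX3 in imbibed mpk8.

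A minimum change of 2-fold left 10153, 8913 and 8700 of all genes on imbibition in wild type, mpk8 and tcp14-labelled seeds, 54 in dry and 2871 in imbibed mpk8, 377 in dry and 2146 in imbibed tcp14-labelled seeds, 723 and 984 between the dry and imbibed lines, and 1518 and 1141 in the interactions. Of the route it left 1 gene in imbibed mpk8, 0 in dry and 2 in imbibed tcp14-labelled seeds, 0 and 1 between the lines and 0 in each interaction.

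Leaving out single libraries gave ranges of -0.95 to 0.036 for LOX3 and 0 to 2.02 for LOX5 on imbibition in mpk8, -0.094 to 0.075 for OPR3 in dry mpk8, -0.55 to 0.41 for LOX3 in imbibed mpk8, and -0.27 to 0.26 for LOX3 and -0.011 to 0.11 for JAR1 in dry tcp14-labelled seeds. Genes of the route called ranged from 3 to 5 in imbibed tcp14-labelled seeds and from 1 to 3 between the imbibed lines. Of all genes, 117 to 684 were called in dry mpk8 and 1347 to 2334 in dry tcp14-labelled seeds. Leaving out any of the 6 libraries compared lowered the mpk8 count by over 1.5 times, most without replicate 1 of dry wild type, and replicate 2 of dry wild type gave the 1347.

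With the replicate number as a block, 6 genes of the route were called on imbibition in wild type, 3 in mpk8 and 5 in tcp14-labelled seeds, and no count of genes of the route changed. Same-numbered libraries did not all correlate, with 8 of 27 pairs over 0.1. At this depth LOX2, LOX4, AOC1 and AOC2 had too few pairs for the test, and the reason for their low counts was not tested.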
